A study of Mus musculus with 21 samples.

Results

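The 79 protein-coding genes for the proteins of the cytosolic ribosome, 47 for the large subunit and 32 for the small subunit, were followed through 4 groups of immortalized mouse embryonic fibroblasts (MEFs). They were chosen by name from the 41608 genes of the count table, namely every Rpl or Rps symbol with a number and an optional a, x or y, plus the acidic stalk genes Rplp0, Rplp1 and Rplp2, Rpsa and the paralogs Rps27l, Rpl22l1 and Rps27rt. The naming rule itself uses no measured value, and all 79 passed the filter on low counts. The MEFs stably expressed LacZ, a bacterial enzyme used as a neutral control, or V5-tagged GCN5, a histone acetyltransferase encoded by Kat2a. Each line received 10 nM control siRNA (siControl; genotype Hsf1 WT in the labels) or siRNA against Hsf1 (siHsf1; genotype Hsf1 KD) for 2 days, with 3 libraries of total RNA per group. Synthetic ERCC transcripts served as spike-in, mix 1 for siControl and mix 2 for siHsf1 per the labels. CUT&RUN, where an antibody guides a nuclease to bound DNA, located c-MYC in separate MEFs labelled Hsf1 WT (ethanol, 7 days) or Hsf1 CKO (4-hydroxytamoxifen, 7 days). The labels do not give the promoter of either transgene, whether a line is 1 clone, or the driver of the Hsf1 deletion.

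Ribosomal proteins (RPs) are made in matched amounts, join ribosomal RNA in the nucleolus and are degraded when left unassembled. Their mRNAs begin with a run of pyrimidines, the 5′ terminal oligopyrimidine (TOP) motif, through which growth signalling by mTORC1 and LARP1 sets their translation. Ribosome production is a long-known output of c-MYC, while HSF1 is the transcription factor of the heat-shock response. The 3 members with the longest runs of C and T at the start of the transcript are shown because they make the shared TOP feature visible. They are RefSeq sequences of build GRCm38.p6 from 10 bases before the annotated start to 20 bases after it, with the longest C/T run in capitals.
Rpl27a: cgtgagCTCCTCCCTTTTCCCTTTCTgcca
Rpl35: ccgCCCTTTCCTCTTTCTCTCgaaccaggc
Rpl15: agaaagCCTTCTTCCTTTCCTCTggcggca
These lie at chr7:109519185-109519214 (plus strand), chr2:39005112-39005141 (minus) and chr14:18270967-18270996 (minus), and their runs are 20, 18 and 17 bases long. Of the 59 members with a RefSeq promoter entry, 26 (44.1%) had a run of at least 7 C or T beginning within 10 bases of the start, against 16.7% of 17268 coding genes and 17.1% of 8925 tested genes. The median run was 6 bases in members and 4 in coding genes. Annotated starts can lie some bases away from the true start, which moves this count.

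Depth and line coincide: LacZ libraries held 7.22 to 8.16 M (mega) gene counts, and GCN5 libraries 3.69 to 4.27 M. Hsf1 fell by 1.28 on the log2 scale with siHsf1 in the LacZ line (edgeR adjusted p = 2.62e-12) and by 0.88 in the GCN5 line (adjusted p = 8.34e-07). Kat2a was not called between the lines under siControl: it was 0.19 higher in the GCN5 line with TMM (adjusted p = 0.0509). It stood at 215, 215 and 220 TMM-scaled counts per M in siControl LacZ and 262, 233 and 245 in siControl GCN5, without overlap. With the spike-in its difference was -0.20 (adjusted p = 0.639). Whether the transgene's reads are counted under Kat2a is not given in the sources used here. Myc fell by 0.60 in the LacZ line (adjusted p = 7.24e-07) and its log2 change was 0.28 in the GCN5 line (adjusted p = 0.236). Of 10 fibroblast markers, Thy1 stayed at 3 counts or fewer in every library. Their summed level was 6526 to 7231 counts per M counts of the library (CPM) in siControl LacZ, 9349 to 10784 in siHsf1 LacZ, 8101 to 8271 in siControl GCN5 and 8395 to 8598 in siHsf1 GCN5. The sum of 8 haematopoietic markers was 4.56 to 14.3 CPM in all libraries and highest in the siHsf1 LacZ group, with Ptprc, Itgam, Adgre1, Lyz2 and Cd3e among those at 3 counts or fewer throughout. Sums of 6 epithelial and 4 endothelial markers were 31.7 to 62.5 and 0.271 to 1.40 CPM, with Epcam, Krt5, Cdh5 and Tek at 3 counts or fewer. The part of these markers in the RP results was not tested. In bulk RNA, a change in the number of cells of a type and a change in RNA per cell cannot be told apart.

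RP mRNAs took a smaller share of the RNA after Hsf1 knockdown in the LacZ line. With siControl the 79 genes held 4.75%, 5.56% and 4.53% of gene counts. With siHsf1 they held 2.98%, 3.31% and 3.16%, so that each siHsf1 library lay below each siControl library. For GCN5 the share was 4.52%, 4.93% and 4.57% with siControl and 4.32%, 4.34% and 4.37% with siHsf1. These groups did not overlap either, but their means of 4.67% ± 0.221 and 4.35% ± 0.0238 (SD, n = 3) lay closer together than the LacZ means of 4.95% ± 0.542 and 3.15% ± 0.165. Counted against the RNA of the other genes, siHsf1 LacZ was the lowest of the 4 groups.

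**Figure D1:**
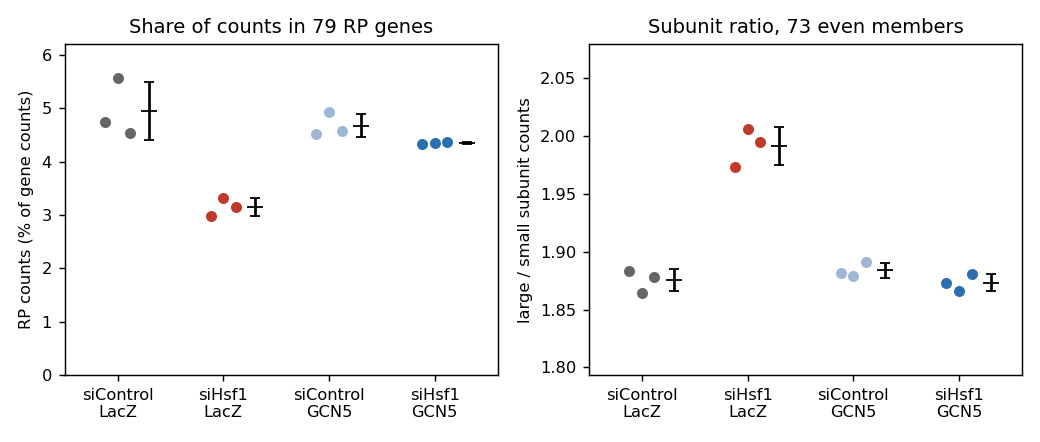
Left, the share of gene counts in the 79 RP genes (percent) in each library of the 4 groups; right, the counts of large over small subunit genes among 73 members with even replicates (axis not from 0). Points are libraries and bars are mean ± SD (n = 3); the 3 siHsf1 LacZ libraries are lowest in share, at 2.98% to 3.31%, and highest in ratio, at 1.97 to 2.01.

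Fold changes below are log2 values from edgeR's quasi-likelihood test on counts, with the standard error (SE) and a Benjamini-Hochberg adjusted p over all 12187 genes tested. TMM scaling measures change relative to the bulk of other genes. Spike-in scaling, by the 23 ERCC transcripts that both mixes hold equally, measures change per amount of spike-in. The other ERCC transcripts summed to 3.89 to 4.03 times the counts of these 23 in the siControl libraries and 3.64 to 4.26 times in the siHsf1 libraries, so this ratio overlapped between the groups and did not separate the labelled mixes. Gene counts scaled by the spike-in varied more between libraries of 1 group. Their common biological coefficient of variation in the fit was 0.274, against 0.0890 with TMM. Levels per library are TMM-scaled CPM, and levels between genes are compared only in FPKM.

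Knockdown of Hsf1 in the LacZ line lowered 73 of the 79 RP genes with TMM scaling and raised 0, against a background of 19.5% of tested genes lower and 21.1% higher. The median change was -0.67 on the log2 scale, which is 1.59-fold lower, against 0.02 over all genes. With spike-in scaling 61 were lower and 0 higher, against a background of 6.03% lower and 0.993% higher, at a median of -1.03. Spike-in scaling moved the median of all genes to -0.35, so the members' median relative to it was -0.68, against -0.69 with TMM. In 75 members every siHsf1 library lay below every siControl library with TMM (background 23.5%), and in 73 with the spike-in (background 13.1%). The spike-in count rested on single libraries: it was 4 without siControl LacZ replicate 1, 23 without replicate 3, and 9 and 5 without siHsf1 LacZ replicates 2 and 3. A fit of only these 2 groups called 1 gene with the spike-in. The TMM count stayed at 70 to 74 when any library was left out.

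TMM log2 changes had an SD of 0.275 between the 79 genes. Among the 73 members with even replicates (SD of log2 CPM up to 0.5 in every group) it was 0.142, with a median SE per gene of 0.0733. Over the 4942 genes expressed at or above the lowest member it was 0.398, and 0.393 over the 4905 of them with even replicates. Among the even members the change ran from -1.12 for Rps25 to -0.36 for Rpl22l1. Across these 73 genes it had a Pearson r of 0.17 with log2 gene length and -0.27 with mean log2 CPM in siControl LacZ, as descriptions over genes that share the same libraries.

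**Figure D2:**
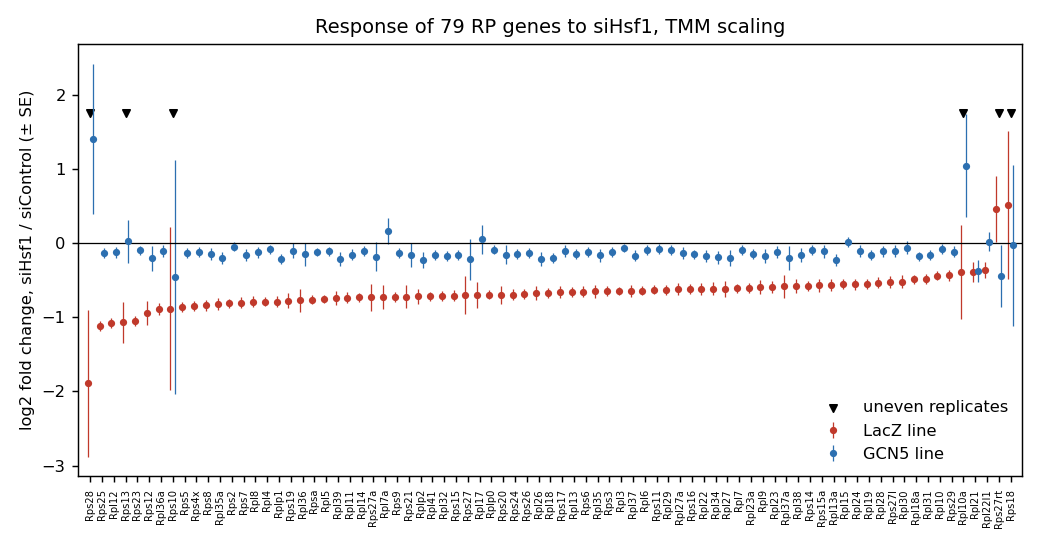
Log2 fold change (siHsf1 over siControl, TMM scaling, ± SE) of the 79 RP genes in the LacZ line (red) and the GCN5 line (blue), ordered by the LacZ value; triangles mark the 6 members with uneven replicates. Most LacZ values form a band around the median of -0.67, and most GCN5 values one around -0.13.

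The proteins of the P stalk, which recruits elongation factors to the large subunit, were lower together. Rplp0, the stalk's scaffold, stood at 2668, 3077 and 2566 CPM with siControl and 1666, 1724 and 1733 with siHsf1. The groups did not overlap, and Rplp0 fell by 0.70 (SE 0.06, adjusted p = 9.43e-10). Its partners Rplp1 and Rplp2, which bind it as pairs, fell by 0.79 and 0.72. Rpl5 and Rpl11, which travel with 5S rRNA and can bind and inhibit MDM2 when assembly fails, behaved alike. Rpl5 went from 924, 1063 and 890 CPM to 551, 575 and 579, a fall of 0.75 (SE 0.06, adjusted p = 4.23e-10). Rpl11 went from 642, 779 and 589 CPM to 388, 417 and 399, a fall of 0.74 (SE 0.07, adjusted p = 4.11e-08). For both genes every siHsf1 LacZ library was below every siControl library. The large subunit genes Rpl3, near the peptidyl transferase centre, Rpl13a, known from interferon-dependent translational control, and Rpl38, linked to selective translation of Hox mRNAs, fell by 0.65, 0.57 and 0.58.

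Small subunit genes of different roles also fell. Rps19, the gene most often mutated in Diamond-Blackfan anaemia, had 604, 741 and 532 CPM with siControl, against 352, 378 and 364 with siHsf1. These groups were separate, with a fall of 0.78 (SE 0.10, adjusted p = 3.92e-05). Rps6, the substrate of S6 kinase, Rpsa, also described as a laminin receptor, and Rps4x, encoded on the X chromosome, fell by 0.65, 0.76 and 0.84. Rps27a, which encodes ubiquitin fused to an RP, stood at 364, 475 and 563 CPM with siControl and 238, 355 and 253 with siHsf1, a fall of 0.73 (SE 0.18, adjusted p = 0.0124). Its call was lost when only these 2 groups were fitted (adjusted p = 0.0658).

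The 6 genes that edgeR did not call in this comparison with TMM were Rps28, Rps10, Rps18, Rpl10a, Rps27rt and Rps27, and 5 of them varied several-fold between replicates. Counts of Rps28 were 77, 2056 and 1660 with siControl and 512, 220 and 276 with siHsf1. Rps10 had 209, 2430 and 213 counts with siControl and 123, 150 and 1318 with siHsf1. Rps18 had 2501, 680 and 287 with siControl and 1271, 2633 and 1399 with siHsf1. These swings followed no group: a single library held most of the counts of Rps10 in each LacZ group. Rpl10a in the GCN5 line had 120, 171 and 117 counts with siControl and 122, 689 and 117 with siHsf1. Rps28, Rps10, Rps18 and Rpl10a all lie on chromosome 17 between positions 27000000 and 35000000 (GRCm38). This window was drawn around them after their values were seen. Of the 25 other genes there with a mean of at least 200 counts, 2 (8%) had a replicate SD above 0.5 on the log2 scale. Over all genes with such a mean it was 50 of 6055 (0.826%), and the cause was not tested. Rps27rt and Rps13, the other two uneven members, lie on chromosomes 9 and 7. Named RP pseudogenes, which can take reads of their parents, held 2.84% to 3.18% of the RP counts in every library. For 2 of the uneven genes they held more than the gene itself: in siControl LacZ replicate 1, Rps10 had 209 counts and its pseudogenes 1318, and Rpl10a had 350 and its pseudogenes 1146. This was not particular to uneven genes: in the same library Rpl17, an even member, had 598 counts and its pseudogenes 1230. With pseudogene counts added, Rps10 had 1527, 4217 and 1604 counts in the siControl LacZ libraries.

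Scaling each library by the summed RP counts asks whether a gene moved more or less than the family. On this scale 13 members departed in the LacZ line, 5 lower (background 0.993%) and 8 higher (background 79.7%). The latter background is high since the family itself fell against other genes. With most tested genes called, the adjustment over all genes was lenient for the members, of which 17 had an unadjusted p under 0.05 with edgeR. The share of all genes at an unadjusted p was not counted. Rps25, Rpl12, Rps23 and Rpl36a were among those that fell more than the family, and Rpl10, Rps29, Rpl22l1, Rpl31, Rpl30, Rpl19 and Rpl28 among those that fell less. Of these, Rps25, Rpl12, Rps23, Rpl10, Rps29 and Rpl22l1 were called in all 12 alternatives tried, which changed the scaling, filter or fit or left out a library. Rpl31 was called in 9 of them, Rpl36a in 7, Rpl30 in 5, and Rpl19 and Rpl28 in 3 each. The count was 6 when only these 2 groups were fitted and 8 without siControl LacZ replicate 1.

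Rps25, a small subunit head protein used by viral internal ribosome entry sites, stood at 456, 530 and 408 CPM with siControl and 206, 218 and 219 with siHsf1. It fell by 1.12 (SE 0.07, adjusted p = 6.15e-12), and by 0.42 against the RP sum (adjusted p = 3.32e-05). Its siHsf1 LacZ libraries held less than those of any other group. Rpl12, at the base of the stalk, went from 923, 1141 and 895 CPM to 455, 473 and 475, a fall of 1.08 (SE 0.07, adjusted p = 1.99e-11). Rps23, which reaches into the decoding centre, went from 691, 822 and 662 CPM to 358, 341 and 353, a fall of 1.05 (SE 0.06, adjusted p = 4.99e-12). All 3 genes were about 2-fold lower, and in each the groups were well apart. At the other end, Rpl10, added late in large subunit maturation, went from 904, 1062 and 847 CPM to 679, 701 and 695. It fell by 0.44 (SE 0.06, adjusted p = 5.17e-06), which was 0.25 above the RP sum (adjusted p = 0.00128). Rps29, a zinc-binding small subunit protein, went from 231, 277 and 218 CPM to 177, 191 and 169, a fall of 0.44 (SE 0.07, adjusted p = 3.59e-05). Both remained below siControl in every library but by less than most members.

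**Figure D3:**
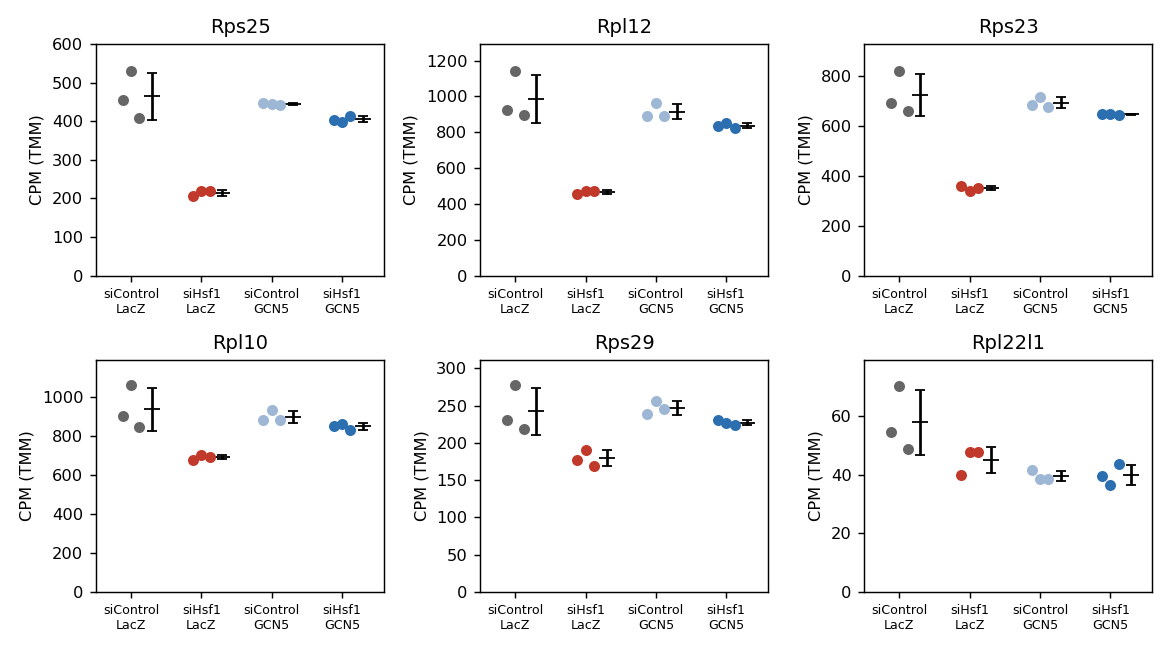
TMM-scaled CPM of 6 RP genes in each library of the 4 groups, with mean ± SD (n = 3) beside the points. Rps25, Rpl12 and Rps23 are about 2-fold lower in siHsf1 LacZ than in siControl LacZ, Rpl10 and Rps29 drop less, and the siHsf1 points of Rpl22l1 lie just below its siControl points.

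Start regions of the genes at both ends are shown, where RefSeq has them, because c-MYC peaks covered most RP starts. Each runs from 150 bases before the annotated start to 20 bases after it (GRCm38.p6, plus strand), with capitals for matches on either strand to CACGTG (E-box, bound by MYC), GGGCGG (GC box), CCGGAAG (ETS factors), AAGATGG (YY1) and TATAAA.
Rps25: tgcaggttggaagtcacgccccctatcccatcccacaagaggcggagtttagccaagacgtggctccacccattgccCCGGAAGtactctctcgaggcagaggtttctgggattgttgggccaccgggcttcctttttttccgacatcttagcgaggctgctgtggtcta
Rpl12: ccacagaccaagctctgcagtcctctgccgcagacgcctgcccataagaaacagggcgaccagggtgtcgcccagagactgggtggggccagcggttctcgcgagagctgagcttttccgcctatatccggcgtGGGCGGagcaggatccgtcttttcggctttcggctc
Rps23: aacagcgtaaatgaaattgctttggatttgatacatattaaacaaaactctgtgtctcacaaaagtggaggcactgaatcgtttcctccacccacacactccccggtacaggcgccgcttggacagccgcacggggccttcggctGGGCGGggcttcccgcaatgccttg
Rpl10: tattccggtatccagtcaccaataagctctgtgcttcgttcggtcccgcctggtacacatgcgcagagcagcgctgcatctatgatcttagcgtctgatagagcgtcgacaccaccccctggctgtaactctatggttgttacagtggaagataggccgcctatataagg
Rpl22l1: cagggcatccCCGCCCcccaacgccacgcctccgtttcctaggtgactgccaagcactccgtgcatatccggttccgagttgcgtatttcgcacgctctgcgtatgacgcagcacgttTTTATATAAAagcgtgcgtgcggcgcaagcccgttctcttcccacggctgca
These lie at chr9:44407564-44407733, chr2:32961562-32961731, chr13:90922972-90923141, chrX:74270666-74270835 and chr3:28805358-28805527. Rps25 held 1 ETS match, Rpl12 and Rps23 each 1 GC box near the start, and Rpl10 no match in this window. Rpl22l1 held a GC box and overlapping TATAAA matches, and its RefSeq start lies 64 bases downstream of the start in the gene table used for peaks. No printed window held the E-box.

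In the full windows of 250 bases before to 50 after the start, the E-box was found in 6 of 59 members (10.2%), against 9.0% of coding and 12.1% of tested genes. CCGGAAG was found in 24 (40.7%), against 13.0% and 21.5%. GGGCGG was found in 36 (61.0%), against 49.6% and 71.3%. AAGATGG was found in 9 (15.3%), against 7.15% and 8.71%, and TATAAA in 7 (11.9%), against 14.7% and 8.22%. The heat-shock element unit TTCNNGAA was found in 5 (8.47%), against 8.69% and 8.03%. Among members with even replicates, the median log2 change in the LacZ line was -0.60 in the 6 with an E-box and -0.69 in the 47 without. It was -0.66 in the 22 with CCGGAAG and -0.69 in the 31 without. The members' share thus stood above both backgrounds for the ETS match, the YY1 match and the C/T run, as a description of these letters only.

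Large and small subunit genes moved by similar amounts, with a small shift in their balance. Among members with even replicates the median log2 change in the LacZ line was -0.64 for 46 large subunit genes, of which 46 were lower, and -0.71 for 27 small subunit genes, of which 26 were lower. With spike-in scaling the medians were -1.01 and -1.07. The ratio of large to small subunit counts over these 73 genes was 1.88, 1.86 and 1.88 with siControl and 1.97, 2.01 and 1.99 with siHsf1 in the LacZ line. In the other line it was 1.88, 1.88 and 1.89 with siControl and 1.87, 1.87 and 1.88 with siHsf1. The 3 siHsf1 LacZ libraries stood above the other 9, and the other 3 groups lay within 1.86 to 1.89. Over all 79 genes the group means were 1.90 in siHsf1 LacZ and 1.80 to 1.82 elsewhere.

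Paralogs were set against their parents within each library, which makes the ratio free of scaling. Rpl22l1, a paralog of Rpl22 whose level is known to be held down by Rpl22 protein, had the most separated ratios. Its counts were 20.0%, 20.6% and 19.0% of those of Rpl22 with siControl and 22.2%, 24.3% and 24.8% with siHsf1 in the LacZ line. With GCN5 they were 14.5%, 12.3% and 13.4% with siControl and 15.5%, 14.1% and 16.1% with siHsf1. Both LacZ groups lay above both GCN5 groups, and the 4 groups differed by an exact permutation test of F (p = 0.00013, adjusted over 3 pairs 0.00039). The log2 ratio was 0.26 higher with siHsf1 in the LacZ line (exact permutation p = 0.1, the smallest that 3 against 3 libraries allow), with no overlap.

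Rpl22 itself went from 273, 341 and 258 CPM to 180, 196 and 192 in the LacZ line, a fall of 0.62 (SE 0.08, adjusted p = 1.97e-06). Rpl22l1 went from 54.6, 70.3 and 48.9 CPM to 39.9, 47.6 and 47.7, a fall of 0.36 (SE 0.11, adjusted p = 0.0113). This call rested on single libraries, with -0.20 (adjusted p = 0.126) without siControl LacZ replicate 2 and -0.28 (adjusted p = 0.0705) without siHsf1 LacZ replicate 1. The ratio of Rps27l to Rps27, where Rps27l is a p53 target, ranged from 46.3% to 91.7% over the 12 libraries with no group apart (exact permutation p = 0.83). Rps27l fell by 0.52 in the LacZ line (adjusted p = 9.85e-06). Rps27 had a log2 change of -0.70 (SE 0.26, adjusted p = 0.0627), which did not pass with edgeR and did with DESeq2 (adjusted p = 0.0267).

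Rps27rt, a retrotransposed copy of Rps27 so alike that reads may be split between them, stood at 8.17%, 13.5% and 33.3% of Rps27 with siControl and 27.6%, 33.6% and 53.4% with siHsf1 in the LacZ line. With siControl in the GCN5 line it stood at 112%, 45.9% and 88.4%, and with siHsf1 at 135%, 38.7% and 45.8%. The 4 groups overlapped, with exact permutation p = 0.0297 (adjusted over 3 pairs 0.0446). The p was 0.11 without siControl LacZ replicate 1, 0.0797 without replicate 2, and 0.0527 and 0.0612 without siHsf1 LacZ replicates 1 and 2. The ratio is uncertain for this reason. The sum of both genes was 298, 359 and 272 CPM under siControl and 203, 249.9 and 220 under siHsf1 in the LacZ line. It was 367, 441 and 406 CPM under siControl and 339.8, 328 and 309 under siHsf1 in the GCN5 line. The sum was thus lowest in siHsf1 LacZ, without overlap with the other groups.

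**Figure D4:**
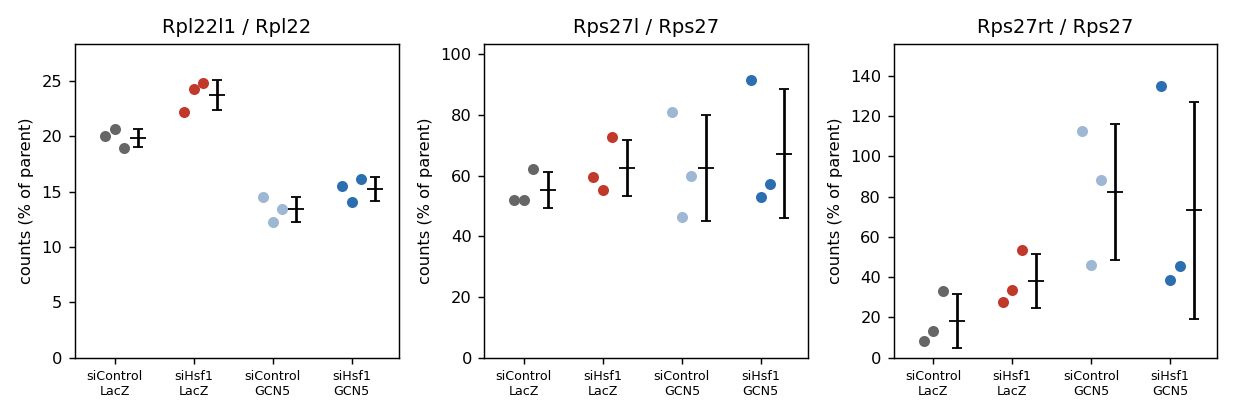
Counts of each paralog as a percentage of its parent in each library of the 4 groups, with mean ± SD (n = 3) beside the points. Rpl22l1 lies between 19.0% and 24.8% of Rpl22 in the LacZ line and between 12.3% and 16.1% in the GCN5 line, while the Rps27 pairs spread widely within groups.

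In the GCN5 line 0 RP genes passed edgeR's test for siHsf1 with either scaling, and few genes of any kind passed (background 0.164% with TMM and 0.041% with the spike-in, either direction). At an unadjusted p under 0.05, 23 members passed with TMM and 1 with the spike-in, and DESeq2 called 0 with both. The share of all tested genes at an unadjusted p was not counted here or below, so such counts have no background. The median log2 change was -0.13 with TMM against -0.00 for all genes, and the SD over the 73 even members was 0.0699. In 46 members every siHsf1 library lay below every siControl library with TMM (background 9.71%). When only these 2 groups were fitted, 22 members were lower and 0 higher with TMM, so the count of 0 changed with whether the LacZ libraries entered the fit. The share of all genes lower in that fit is not given here. Rps25 stood at 448, 446 and 441 CPM with siControl and 403, 398 and 415 with siHsf1, a log2 change of -0.13 (adjusted p = 0.533). The extreme values were -0.46 for Rps10, -0.45 for Rps27rt and -0.37 for Rpl21, and 0.16 for Rpl7a, 1.04 for Rpl10a and 1.40 for Rps28, of which only Rpl21 and Rpl7a had even replicates. Against the RP sum 0 members departed (background 0.0246%) and 0 had an unadjusted p under 0.05 with edgeR, and DESeq2 was not run for this comparison on that scale. Across the 73 even members the LacZ and GCN5 changes had a Pearson r of -0.01.

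The interaction term tests whether the change with siHsf1 differed between the lines. The fall of Hsf1 itself was smaller in the GCN5 line, with an interaction of 0.41 (SE 0.11, adjusted p = 0.0105, TMM), and its part in the RP difference was not tested. With TMM, 63 members had a significantly higher change in the GCN5 line and 0 a lower one (background 11% higher and 10.9% lower), at a median difference of 0.54 against -0.02 for all genes. The difference was 0.98 for Rps25 (SE 0.10, adjusted p = 8.23e-08), 0.95 for Rpl12 (adjusted p = 1.81e-07) and 0.95 for Rps23 (adjusted p = 3.99e-08). Rps28 (3.29), Rpl10a (1.44) and Rps13 (1.09) had larger values, and Rps27rt (-0.90) and Rps18 (-0.54) negative ones, none of which passed. With the spike-in 0 members passed with edgeR (background 0.394%, either direction), 36 had an unadjusted p under 0.05 and DESeq2 called 0. The background belongs to the adjusted call, and the share of all genes at an unadjusted p was not counted. The count of 0 changed with left-out libraries and with a replicate block, as the last section gives. The spike-in median was 0.86 against 0.32 for all genes, so the relative difference of 0.54 was close to the 0.55 of TMM. Scaled to the RP sum, Rps25 (0.41), Rpl12 (0.38) and Rps23 (0.38) remained higher (background 0.845%), and the lower ones included Rpl21 (-0.54, background 54.8%). Most tested genes were called on this scale, so the adjustment over all genes was lenient for the members. Rps25 and Rpl12 were named as the label's markers, and Rps23 for its fall in the LacZ line. These genes fell most among even members there, and that fall is part of the interaction, so their values here are a description.

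Between the lines under siControl, most members were alike relative to other genes. With TMM 5 were lower in GCN5 (background 4.15%) and 1 higher (background 5.45%), at a median of -0.09. Lower were Rpl22l1 (-0.55, adjusted p = 0.00332), Rps15 (-0.27), Rpl41 (-0.26), Rpl19 (-0.22) and Rps26 (-0.21). Higher was Rps27rt (1.97, adjusted p = 0.027), whose call was lost without siControl GCN5 replicate 1, 2 or 3 or siControl LacZ replicate 1 or 2 (adjusted p 0.0507 to 0.0907). Rps15, Rpl41, Rps26 and Rpl19 were singled out after their values were seen, and the first 3 of them lie on chromosome 10. The total was 1 without siControl GCN5 replicate 1, 2 without replicate 3, and 13 without siControl LacZ replicate 3. With the spike-in 1 was higher (background 0.542%), an uneven member, at a median of -0.47 against -0.40 for all genes. The spike-in log2 change was below 0 in 78 of 79 members and in 11231 of 12187 tested genes. Against the RP sum Rpl22l1 was lower at -0.47 (background 1.35%) and Rps27rt higher at 2.03 (background 3.6%). Rpl22l1 stood at 41.5, 38.7 and 38.4 CPM in siControl GCN5, below each of the siControl LacZ values.

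Under siHsf1, RP genes were higher in the GCN5 line than in the LacZ line relative to other genes. With TMM 65 members were higher (background 22.3%) and 0 lower, at a median of 0.43. With the spike-in 1 was higher (background 1.82%), at a median of 0.38 against -0.07 for all genes. This 1 was an uneven member, and 0 of the 73 even members were called. Rps25 was 0.92 higher (adjusted p = 1.58e-10), Rps23 0.89 (adjusted p = 7.34e-11) and Rpl12 0.84 (adjusted p = 1.15e-09). The spike-in count was 8 without siHsf1 LacZ replicate 1 and 0 without replicate 2. Against the RP sum 15 members were lower (background 63.7%) and 11 higher (background 3.6%). Most tested genes were called on that scale, so the adjustment was lenient for the members, of which 27 had an unadjusted p under 0.05 with edgeR. This comparison uses the same siHsf1 LacZ libraries as the knockdown comparison above. Kat2a, the gene of GCN5, fell by 0.80 with siHsf1 in the LacZ line and changed by 0.01 in the GCN5 line.

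Levels per length were compared in siControl LacZ, where the median member stood at 620 FPKM. The highest were Rpl8 at 2426 ± 337 FPKM, Rplp1 at 2281 ± 245 and Rplp0 at 2007 ± 199 (SD, n = 3), whose spreads overlap. The lowest were Rpl10a at 25.9 ± 1.81 and Rpl21 at 49.8 ± 7.43. Rpl10a has 3 named pseudogenes in the table, which can take its reads, so its level is uncertain.

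Genes that work with the family were examined in 4 lists. Of 6 tested RP genes outside the naming pattern, 5 were lower with siHsf1 in the LacZ line (TMM; background 19.5%), among them Rps3a1 (-0.63), Rpl7l1 (-0.54) and Rpl36al (-0.43). Of 20 other mRNAs with a TOP start, 16 were lower and 0 higher, including the elongation factors Eef1a1 (-0.81), Eef1b2 (-0.88) and Eef2 (-0.60) and the nucleolar chaperone Npm1 (-0.94). The medians of these lists were -0.43 and -0.48, less far from 0 than the RP median of -0.67. Of 12 RP chaperones and assembly helpers 7 were lower, among them Bop1 (-0.80) and Pes1 (-0.72) of the PeBoW complex, Grwd1 (-0.82), a chaperone of Rpl3, and Nap1l1 (-0.60), while Pdcd2 was higher (0.31). Of 18 regulators of RP transcription and TOP translation 5 were lower, including Myc, Larp1 (-0.26) and Rps6kb1, the S6 kinase (-0.28), and 3 were higher, including Tsc1, an mTORC1 inhibitor (0.67). These counts of regulators stood near the background of 19.5% lower and 21.1% higher. With spike-in scaling 1, 9, 5 and 1 genes of the lists, in the order given, were lower and 0 higher (background 6.03% lower). With siHsf1 in the GCN5 line 0 genes of these lists passed with edgeR and TMM, and 2, 5, 2 and 3 genes had an unadjusted p under 0.05; no other tool was run on the lists. The interaction with TMM was higher for 2, 13, 7 and 3 genes of the lists in the same order (background 11%) and lower for 1 regulator, Tsc1 (-0.65, adjusted p = 0.00124). With the spike-in 0 genes of the lists passed the interaction test with edgeR, and 1, 9, 6 and 1 had an unadjusted p under 0.05. The share of all genes at an unadjusted p was not counted for either comparison.

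Peaks of c-MYC covered most RP starts in both genotypes. The lists are single per genotype, so their values have no replicate error, and the signal is the authors' summed coverage per peak. The Hsf1 WT list held 220037 peaks over 509.9 Mb, and the Hsf1 CKO list 6386 peaks over 11.5 Mb, so a difference in membership can reflect the length of the lists. A peak lay within 1000 bases of the annotated start in 71 of 79 members (89.9%) in WT, against 77.1% of tested genes and 87.4% of the 4942 genes at or above the lowest member. In CKO the numbers were 57 members (72.2%), 35.1% and 48.4%. The WT share was thus close to that of this expressed set, and the CKO share was above it. The set is not matched to the members in level. It begins at a mean log2 CPM of 5.54, while the median member stood at 488, 571 and 458 CPM in the siControl LacZ libraries. By subunit, 42 large and 29 small subunit genes had a WT peak, and 37 and 20 a CKO peak.

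The maximum of the peak lay at a median distance of 184 bases from the start in WT and 186 in CKO, on either side, and within 500 bases for 63 of 71 and 52 of 57 genes. The median rank of the RP peaks by signal was in the top 9.13% of the WT list and the top 20.2% of the CKO list. Ranks were taken over all peaks of a list, with the largest peak per start. No rank was taken for peaks at the starts of other genes. Among the largest CKO signals were those at Rpl30 (14.5), Rpl3 (10.4), Rps25 (9.29), Rpl38 (7.82) and Rpl10 (6.97). The Rps25 peak spanned chr9:44406023-44408214 in CKO and chr9:44406727-44409957 in WT (mm10, the same assembly as GRCm38), across the start shown above, with the maximum upstream of it. The Rpl12 peak spanned chr2:32961088-32962887 in CKO and chr2:32959207-32963231 in WT. The Rpl10 peak spanned chrX:74269326-74272302 in CKO and chrX:74265376-74272998 in WT.

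The RNA response was similar with and without a listed peak. In the LacZ line the median log2 change was -0.70 for 55 members with a peak in both lists, of which 52 were called lower. It was -0.64 for 16 members with a WT peak alone, of which 14 were lower. Rpl41 and Rps6, with a CKO peak alone, were both lower. Rpl15, Rpl17, Rpl18, Rpl37a, Rps20 and Rps27rt had no peak in either list, with a median of -0.63 and 5 called lower, all but Rps27rt. Rps25, Rpl12 and Rps23, which fell most among even members, and Rpl10, which fell less than the family, all had peaks in both lists. No difference between these classes was tested.

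**Figure D5:**
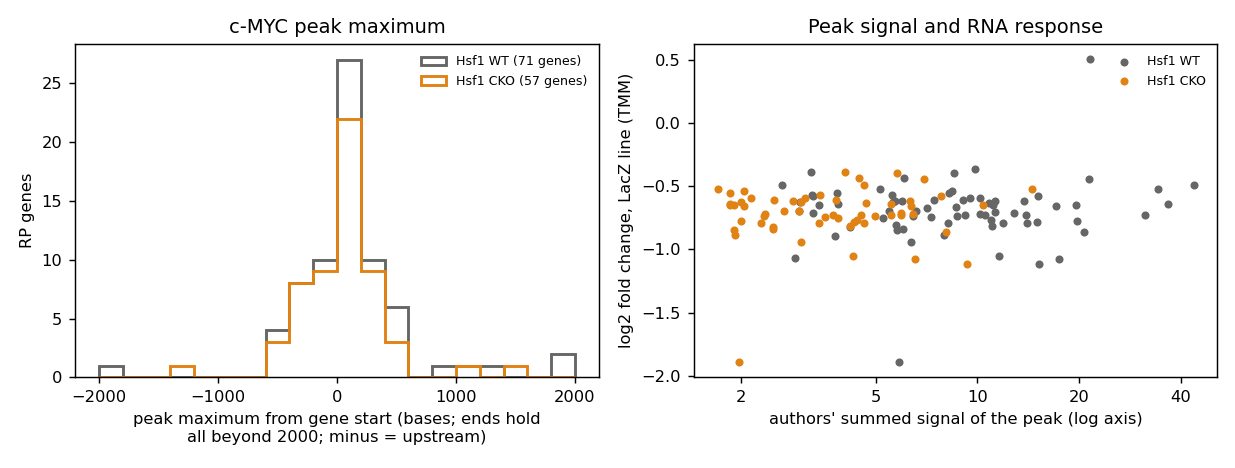
Left, the number of RP genes by distance (bases) from the annotated start to the c-MYC peak maximum in Hsf1 WT (71 genes) and Hsf1 CKO (57 genes) MEFs; right, log2 fold change with siHsf1 in the LacZ line (TMM) against the authors' summed signal of the peak (log axis), 1 point per gene and list. Maxima gather around the start, with 63 of 71 and 52 of 57 within 500 bases, and genes with weak and strong peaks share the same range of log2 change.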

How the data were processed

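Immortalized mouse embryonic fibroblasts were profiled by total RNA-seq (12 libraries) and by c-MYC CUT&RUN. The read counts per gene were deposited by the authors as one table, with the FPKM values (counts per kilobase of gene and library size) in a second deposited table. HISAT2, Bowtie2, SEACR, DESeq2, GRCm38 and mm10 are named in the submitters' processing notes without versions or roles. The peak lists hold, per peak, the authors' summed coverage signal and, as a score, the authors' highest coverage, with 1 list per genotype; whether replicates were pooled before calling is not given in the sources used here.

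Counts were tested with edgeR 4.0.16 (quasi-likelihood, 4 group means, minimum count of 10, R 4.3.3), with p-values adjusted by the Benjamini-Hochberg method over all 12187 genes tested. Every adjusted p in the text is from this fit unless another tool is named, and a gene is called at an adjusted p under 0.05. The scalings used were TMM, the summed counts of the 23 ERCC subgroup B spike-ins, and the summed counts of the ribosomal protein genes. Which spike-ins form subgroup B was listed from general knowledge of the mix and is not given in the sources used here. Standard errors were taken from the fold change and its F statistic. Ratios of a paralog to its parent used a pseudocount of 0.5 and exact permutation tests. DESeq2 1.42.0, other scalings, no filter, a replicate block, added pseudogene counts and left-out libraries were the alternatives. The fit was also run on simulated counts. Their spike-in setting held no error of the spike-in between libraries, so they cannot speak for the stability of the spike-in calls. Library totals were 3.69 to 8.16 M (mega) counts, and no replicate pair agreed within sampling noise (chi-square per degree of freedom 1.96 to 10.1). The labels do not say that replicates came from separate cultures, so p-values measure the spread between these libraries.

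The family and the lists were chosen for study with earlier results of these data known, although the rule that picks the members reads names only. Named genes were the label's markers, the paralog pairs, genes with known roles, the extremes of each comparison, the genes departing from the family sum, those without a peak or with the highest signal, and up to 4 of each other list by p. The promoters printed and the genes plotted singly were picked after their values were seen. RNA libraries of a c-Myc knockdown were not analysed here. A few genes that the naming rule selects are counted in the totals and not reported here by name.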

Additional observations from a re-analysis of the deposited data

Results flagged for a closer look

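The response of RP genes to siHsf1 differed between the LacZ and GCN5 lines, and this difference was itself tested with an interaction term in edgeR (TMM scaling). It passed for 63 of the 79 genes, all with a higher change in the GCN5 line. The interaction was 0.98 on the log2 scale for Rps25, 0.95 for Rpl12 and 0.95 for Rps23. These genes fell most among even members in the LacZ line, and that fall is itself part of the interaction. Depth coincides with the line and the fall of Hsf1 was smaller in the GCN5 line (interaction 0.41, adjusted p = 0.0105), and the part of either was not tested. With spike-in scaling 0 genes passed with edgeR, 36 had an unadjusted p under 0.05 and DESeq2 called 0. The share of all genes at an unadjusted p was not counted, and the count of 0 changed with a replicate block, as given below.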

How the results depend on the processing

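With spike-in scaling the count of lower RP genes in the LacZ line was 38 without a filter on low counts, 1 when only the 2 groups were fitted and 4 to 74 when single libraries were left out, against 61. In the GCN5 line 0 were lower and 0 to 1 higher with left-out libraries, and the line comparison under siHsf1 gave 2 with only 2 groups and 0 to 8 with left-out libraries, against 1. The spike-in interaction gave 0 to 7 with left-out libraries, against 0. With TMM scaling, siHsf1 in the GCN5 line gave 1 without the filter and 22 with only 2 groups, against 0. The line comparison under siControl gave 2 with only 2 groups and 1 to 13 with left-out libraries, against 6. Departures from the RP sum numbered 6 with only 2 groups and 8 to 17 with left-out libraries in the LacZ line, against 13. Between the lines under siControl they numbered 1 with TMM on member genes, 1 without the filter, 0 with only 2 groups and 0 to 3 with left-out libraries, against 2. The share of all genes called under these alternatives is not given here, so these counts have no background. The log2 ratio of Rps27rt to Rps27 was 0.79 to 1.81 with left-out libraries.

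Deviations of same-numbered libraries from their group means correlated at r = -0.056 to 0.0899 over genes, so the replicate numbers were not taken to pair them. This check does not see a shift of a whole library, and the spike-in scaled RP sum was highest in replicate 1 in 4 of 4 groups. With a replicate block, the spike-in counts were 11 for the lines under siControl, 18 under siHsf1 and 43 for the interaction. Of the 11, 10 were lower in GCN5, so the majority reversed. The share of all genes called with the block is not given here, so these counts have no background either. Departures under siControl numbered 1 with the block. For Rpl22l1 to Rpl22 the paired log2 ratio was 0.26 and for Rps27rt to Rps27 1.25, each with exact p = 0.25, the smallest that 3 pairs allow. The causes were not tested. Of 507 values of named genes under alternatives, 485 kept their direction and side of the threshold, 7 passed newly and 15 no longer passed. The median SE of members with TMM was 0.0748 in the LacZ line and 0.0763 in the shallower GCN5 line, against 0.318 and 0.316 with the spike-in. Leaving out the 6 uneven members and using RefSeq starts were chosen after seeing the data.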
